A study of Mus musculus with 32 samples.

Results

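The 7 genes described here encode secreted matrix proteins: the fibulin genes Efemp1, Efemp2, Fbln1, Fbln2 and Fbln5, the periostin gene Postn and the osteopontin gene Spp1. They are 7 of the 35458 genes to which the transcripts in the count tables belong. Each gene's value is the sum of the reads assigned to all of its Ensembl transcripts. The genes were chosen by their measured levels in these libraries, so their levels across the experiments are given as a description and not as a test.

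Fibulins are calcium-binding glycoproteins built from repeated EGF-like domains, and they sit in elastic fibres and basement membranes. Fibulin-4 (Efemp2) and fibulin-5 (Fbln5) are needed to assemble elastic fibres, for which they help to bring lysyl oxidases to elastin. Periostin and osteopontin are matricellular proteins, which signal to cells through integrins more than they build fibres. Periostin is known from periosteum, tendon and wound stroma, and osteopontin is an acidic phosphoprotein of bone and of many secretory epithelia. Col3a1, a fibrillar collagen gene of fibroblasts, served as the sign of stromal RNA in a library.

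The libraries come from parathyroid gland (PTG) cells, the endocrine cells that secrete parathyroid hormone. Each of the 32 libraries was made from 10 to 20 cells that expressed tdTomato from the Pth gene and were picked under a micromanipulator. They form 8 experiments of 4 biological replicates each. Control cells were from C57BL/6-Pthtm1(P2A-tdTomato)/+ mice, males aged 8 weeks in control experiment 1 and females aged 11 weeks in control experiment 2. In the 4 mouse-host experiments the cells derived from Pth-tdTomato mouse embryonic stem cells (ESCs) that had complemented Gcm2-/- mice on a BDF1B6 background, aged 9 weeks, with females in experiments 1 to 3 and males in experiment 4. Gcm2 encodes the transcription factor that a parathyroid gland needs to form, and the reporter is carried by the ESCs. The rat-host experiment used the same kind of ESCs in a Gcm2-/- Wistar rat, sampled as a neonate of unknown sex. The graft experiment used ESC-derived cells of the same Gcm2-/- mouse background after grafting, labelled male and 12 weeks. Nothing in the labels ties a replicate to an animal, so p-values measure the spread between these libraries and experiments, which may be partly technical. Host species and age differ together between the rat-host and mouse-host groups and cannot be told apart. Grafting likewise differs together with age and, against mouse-host experiments 1 to 3, with sex. The 2 control experiments differ in sex, age and depth, which cannot be told apart either.

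Control experiment 1 held 29471254 to 32264864 reads per library and the other 28 libraries 9470744 to 15098391. The summed level of 6 parathyroid markers (Pth, Gcm2, Casr, Chga, Gata3 and Kl) in rat-host libraries was 157927 to 178091 CPM (reads scaled to a common library size, which the TMM method adjusts), against 257425 to 366168 CPM elsewhere. The 10 fibroblast markers summed to 5984 CPM in mouse-host experiment 2 replicate 4 and to 4977 CPM in control experiment 2 replicate 3. They reached 423 and 104 CPM in graft replicates 1 and 4 and at most 53.5 CPM in every other library. Replicate 4 of mouse-host experiment 2 and replicate 3 of control experiment 2 thus stand apart. The Fbln1 fold change of mouse host against control, the Fbln2 reads and the relation to Col3a1 are given with and without them. The medians of gene lists below are given with them only. The 9 macrophage markers summed to at most 68.5 CPM, with no read in the rat host, and Adgre1 and Fcgr1 were at 0 reads in all libraries. In the rat host, stromal cells and macrophages can be of the rat, and the count tables hold mouse transcripts only. Low values of Col3a1 and of other such markers there therefore do not show that these cells were absent.

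Several members are made as alternative transcripts, and the sequences that tell them apart are shown first because the transcript shares below rest on them. They are taken from the GENCODE M21 transcripts of GRCm38 and run 5′ to 3′. Capitals mark the part that only some transcripts have, and each lower-case flank is 18 bases that all the compared transcripts share.
Postn, 81-base exon (exon 17 of 23 in the longest form): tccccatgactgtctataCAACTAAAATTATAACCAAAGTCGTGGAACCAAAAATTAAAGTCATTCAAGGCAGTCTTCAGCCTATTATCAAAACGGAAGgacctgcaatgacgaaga
Postn, 84-base exon (exon 21 of 23 in the longest form): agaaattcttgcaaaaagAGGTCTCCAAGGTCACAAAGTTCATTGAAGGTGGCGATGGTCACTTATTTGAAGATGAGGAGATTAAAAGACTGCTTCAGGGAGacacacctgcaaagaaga
Fbln1 longer form, start of its own coding end: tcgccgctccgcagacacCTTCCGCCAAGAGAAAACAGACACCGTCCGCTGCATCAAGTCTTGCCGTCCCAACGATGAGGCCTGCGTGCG
Fbln1 shorter form, start of its own coding end: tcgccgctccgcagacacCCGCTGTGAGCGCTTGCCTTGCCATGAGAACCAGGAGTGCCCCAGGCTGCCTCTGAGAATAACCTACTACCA
Efemp2 longer form, start of its own coding sequence: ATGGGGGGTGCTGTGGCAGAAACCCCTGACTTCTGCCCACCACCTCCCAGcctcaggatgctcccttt
Both Postn exons keep the reading frame, so the 4 coding transcripts compared differ by whole codons. The longest has both exons and 838 codons, 1 has the 81-base exon alone and 810, 1 has the 84-base exon alone and 811, and the shortest has neither and 783. The 2 Fbln1 forms share their beginning and then end differently, on 412 coding bases of their own in the longer form and 352 in the shorter. The 2 Efemp2 forms differ at the beginning. The longer keeps 286 bases that are spliced out of the shorter, and the last 50 of them, in capitals, open its coding sequence, which begins 57 bases ahead of that of the shorter.

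**Figure D1:**
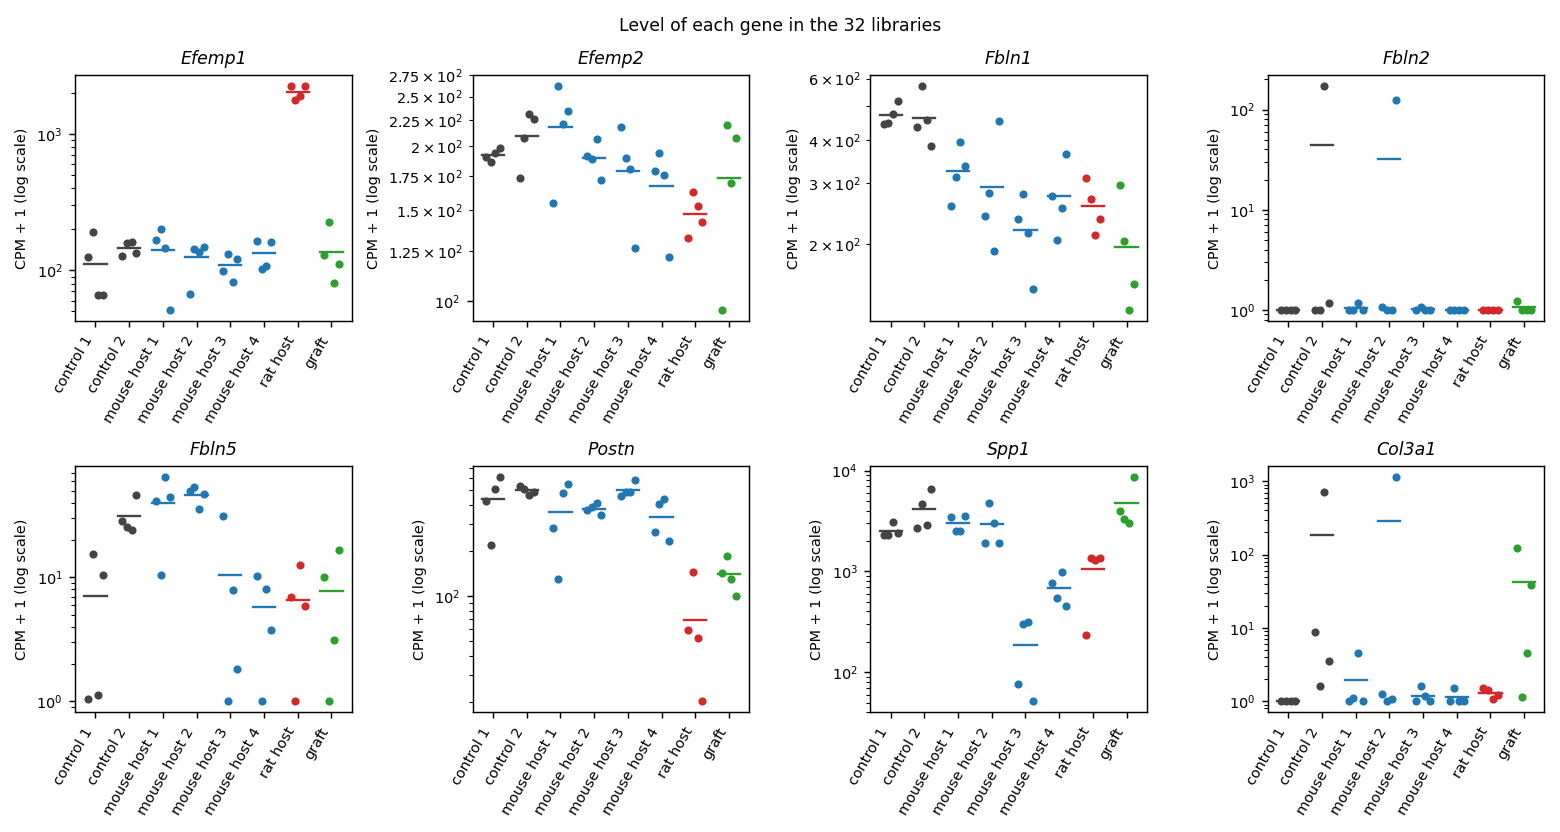
CPM + 1 on a log axis for the 7 genes and Col3a1 in 8 experiments, 1 point per library and a bar at the mean of 4 libraries. Efemp1 stands at 1771 to 2245 CPM in the rat host against 50.3 to 223 CPM elsewhere, and Fbln2 is present in the 2 libraries that are also high in Col3a1.

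Per unit length and averaged over the experiments of an arm, Spp1 was the most abundant member in control, mouse-host and graft cells. On the TPM scale (transcript abundance corrected for length and depth, averaged over experiments), Spp1 stood at 2788 in control cells, rank 20 among the genes detected there, at 1501 in mouse-host cells (rank 42) and at 3562 in the graft (rank 16). In mouse-host experiment 3 alone, Spp1 averaged 162 TPM, below Postn at 175 TPM. In the rat host Spp1 was at 1191 TPM (rank 68) and Efemp1 was above it at 1479 TPM (rank 48). In control cells the next members were Fbln1 at 204 TPM, Postn at 162, Efemp2 at 144 and Efemp1 at 68.0. Fbln5 at 7.94 TPM and Fbln2 at 4.84 TPM were far below.

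Efemp1 (ENSMUSG00000020467, chromosome 11) encodes fibulin-3, a fibulin of basement membranes and fine elastic fibres. Its rat-host libraries stood at 2238, 1771, 1884 and 2245 CPM. The other 28 libraries ran from 50.3 to 223 CPM with a median of 130 CPM. No library of another experiment came near the rat-host libraries. The sum of parathyroid markers was low in the same 4 libraries, as given above, and its part in the level of Efemp1 was not tested. The arm means were 2035 ± 244 CPM in the rat host (SD, n = 4 libraries), 126 ± 14.0 in mouse hosts (SD, n = 4 experiments), 127 ± 23.3 in controls (SD, n = 2 experiments) and 135 ± 61.7 in the graft (SD, n = 4 libraries). The ratio of rat-host to mouse-host means was 16.2 on the CPM scale and 21.4 on the TPM scale. The means of the other 7 experiments lay between 107 ± 22.5 CPM in mouse-host experiment 3 and 144 ± 16.9 CPM in control experiment 2 (SD, n = 4), and every pair of neighbours among them overlapped.

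Efemp2 (ENSMUSG00000024909, chromosome 19) encodes fibulin-4, which elastic fibres need in order to form. It was the most even of the members, at 121 to 261 CPM in control and mouse-host libraries, from 132 up to 162 CPM in rat-host libraries and from 95.1 up to 219 CPM in grafted cells. All 7 pairs of neighbouring experiments overlapped. The rat-host mean was the lowest, 147 ± 12.9 CPM (SD, n = 4), against 188 ± 21.7 in mouse hosts (SD, n = 4 experiments). On the TPM scale the direction turned, with a ratio of 1.04 in place of 0.782.

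Fbln1 (ENSMUSG00000006369, chromosome 15) encodes fibulin-1, found in basement membranes and plasma. The control libraries gave 443, 445, 473 and 517 CPM in experiment 1 and 434, 571, 454 and 383 CPM in experiment 2. The 16 mouse-host libraries ran from 147 to 451 CPM with a median of 266 CPM. Of the mouse-host libraries, 2 reached into the control range, at 392 CPM in experiment 1 and at 451 CPM in experiment 2 replicate 4, the library richest in fibroblast markers. The graft stood at 296, 203, 128 and 153 CPM and the rat host at 310, 268, 212 and 236 CPM, both below all 8 control libraries. The log2 fold change of mouse host against control was -0.76 (SE 0.17), and -0.82 (SE 0.18) without the 2 libraries rich in fibroblast markers.

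Fbln2 (ENSMUSG00000064080, chromosome 6) encodes fibulin-2, a fibulin of stroma and vessel walls. It had 2102 reads (172 CPM) in control experiment 2 replicate 3 and 1206 reads (124 CPM) in mouse-host experiment 2 replicate 4. In the other 30 libraries there were 9 Fbln2 reads in all, with at most 3 in any of them and 25 libraries at 0. Those 2 libraries held 99.7% of the reads of Fbln2 and 90.0% of those of Col3a1. Graft replicate 1, with 1533 reads of Col3a1 (122 CPM), had 3 reads of Fbln2. Outside the 2 libraries Fbln2 was not detectable at this depth, where a count of 0 allows up to 3 reads, or 0.0946 to 0.324 CPM depending on the library.

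Fbln5 (ENSMUSG00000021186, chromosome 12) encodes fibulin-5, which binds elastin and integrins. It was low and uneven: 27.3, 24.4, 23.1 and 45.5 CPM in control experiment 2, but 0.0342, 14.6, 0.128 and 9.47 CPM in control experiment 1. Mouse-host experiments 1 and 2 ran from 9.46 to 63.7 CPM with a median of 44.9 CPM. Mouse-host experiments 3 and 4 ran from 0 to 30.4 CPM with a median of 4.83 CPM. The rat host had 5.92, 0, 11.5 and 4.86 CPM and the graft 9.00, 0, 2.12 and 15.8 CPM. Mouse-host experiments 3 and 4, the rat host and the graft each had 1 library with no Fbln5 read. With 10 to 20 cells per library, fewer cells with the transcript and less RNA per cell cannot be told apart, for this or any other member.

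Postn (ENSMUSG00000027750, chromosome 3) encodes periostin. Its rat-host libraries stood at 58.8, 142, 51.9 and 19.1 CPM and its graft libraries at 142, 182, 129 and 98.3 CPM. The 24 control and mouse-host libraries ran from 129 to 612 CPM with a median of 447 CPM. A single one of them, mouse-host experiment 1 replicate 2 at 129 CPM, lay within the range of the rat host and the graft, and the next lowest was 215 CPM. The means were 68.0 ± 52.4 CPM in the rat host, 138 ± 34.9 in the graft (both SD, n = 4 libraries), 394 ± 75.8 in mouse hosts (SD, n = 4 experiments) and 470 ± 42.1 in controls (SD, n = 2 experiments). Markers of dense connective tissue (Scx, Mkx, Tnmd, Fmod and Kera) were low in the rat host too, summing to 24.9 to 35.9 CPM, against 693 to 3668 CPM in controls, 51.5 to 5111 CPM in mouse hosts and 11.4 to 6140 CPM in the graft. The 4 graft libraries were uneven, at 33.8, 6140, 11.4 and 748 CPM, so replicates 1 and 3 lay within or below the rat-host range. Tnmd made up nearly all of the higher sums in every arm outside the rat host. It stood at 6140 and 730 CPM in graft replicates 2 and 4, and at 1120 of 1140 CPM in control experiment 1 replicate 1. In the rat host Tnmd was at 12.9 to 18.3 CPM, so the low sum there is largely that of 1 gene. Of the 3 list genes tested between the rat host and mouse hosts, 2 were lower and 1 was higher. Fmod and Kera were at 0 reads in every library. The part of these genes in the level of Postn was not tested.

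Spp1 (ENSMUSG00000029304, chromosome 5) encodes osteopontin. In mouse-host experiment 1 it stood at 3430, 2530, 2518 and 3558 CPM and in experiment 2 at 1908, 4808, 3023 and 1927 CPM. In experiment 3 it stood at 74.9, 298, 312 and 50.5 CPM and in experiment 4 at 771, 539, 990 and 449 CPM. The 4 mouse-host experiments thus formed an upper pair and a lower pair, and no library of the lower pair reached the upper one. Of the lower pair, experiment 3 was labelled female, like experiments 1 and 2, and experiment 4 male. Control libraries ran from 2283 to 6566 CPM, the graft from 2997 to 8622 CPM, and the rat host stood at 234, 1346, 1283 and 1345 CPM. Macrophages can also express Spp1. In control experiment 1 and in mouse-host experiment 1, where Spp1 averaged 2517 and 3009 CPM, 8 of the 9 macrophage markers were at 0 reads. In control experiment 2 and the graft, where Spp1 averaged 4191 and 4727 CPM, 6 and 5 of the 9 had reads. The marker sums reached 68.5 and 29.5 CPM there. The number with reads was 2, 2 and 3 in mouse-host experiments 2 to 4 and 0 in the rat host. The 5 genes of MHC class II summed to 141 to 199 CPM in control experiment 1 and to 47.2 to 76.3 CPM in mouse-host experiment 1. They summed to 151 to 303 CPM in control experiment 2 and to 4.46 to 106 CPM in the graft. The part of macrophages in the level of Spp1 was not tested.

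Set in order of their experiment means (SD over 4 libraries throughout), the 7 members had 7 different experiments at the top. For Efemp2 it was mouse-host experiment 1 at 217 ± 45.4 CPM, for Fbln5 mouse-host experiment 2 at 45.5 ± 7.7 CPM and for Postn mouse-host experiment 3 at 504 ± 53.8 CPM. Fbln1 was highest in control experiments 1 (469 ± 34.4 CPM) and 2 (461 ± 79.4 CPM), then came mouse-host experiments 1 (324 ± 55.8), 2 (291 ± 113) and 4 (274 ± 66.2), the rat host (257 ± 42.5), mouse-host experiment 3 (219 ± 54.7) and the graft (195 ± 74.1). After its top, Postn stood at 500 ± 28.1 CPM in control experiment 2, 440 ± 169 in control experiment 1 and between 334 and 377 in mouse-host experiments 1, 2 and 4, above the graft and the rat host. Spp1 was highest in the graft (4727 ± 2628 CPM), followed by control experiment 2 (4191 ± 1804), mouse-host experiments 1 (3009 ± 563) and 2 (2916 ± 1364) and control experiment 1 (2517 ± 374). Below these came the rat host (1052 ± 546 CPM) and mouse-host experiments 4 (687 ± 243) and 3 (184 ± 140). Spp1 had 2 breaks without overlap: between control experiment 1 and the rat host, and between mouse-host experiments 4 and 3. Postn had 1, between mouse-host experiment 4 and the graft, and Efemp1 had 1, below the rat host. Efemp2, Fbln1, Fbln2 and Fbln5 had none, so every pair of neighbours in their order shared part of its range. The orders follow the levels that chose the members, and such breaks were not counted over all genes. Nothing is therefore read from the number of breaks. Among those overlapping pairs the means lay farther apart than the larger SD for Fbln1 between control experiment 2 and mouse-host experiment 1 (137 CPM), for Fbln5 between control experiment 2 and mouse-host experiment 3 (20.6 CPM) and for Postn between the graft and the rat host (69.8 CPM).

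The arms were compared in a fit of the 8 experiment sums over all genes, with edgeR's quasi-likelihood test and Benjamini-Hochberg adjustment, with 0.05 as the limit of the adjusted p for a call. Between the rat host and mouse hosts 2 of the 7 members were called, Efemp1 higher and Postn lower, where 0.643% of the 15698 tested genes were called. DESeq2, run as an alternative, called the same 2 of the 7, where it called 6.77% of 15481 genes. The levels that chose the members are in this contrast and in each one below, within the arms too, so nothing is read from their counts and no p is given as support. The log2 fold change was 4.08 (SE 0.17) for Efemp1 and -2.51 (SE 0.28) for Postn. It was -0.05 (SE 0.22) for Fbln1, -0.31 (SE 0.21) for Efemp2, -0.65 (SE 1.24) for Spp1 and -2.12 (SE 1.43) for Fbln5. The median over the members was -0.65 and that over all tested genes -0.03. The call for Postn was lost when control experiment 1 or control experiment 2 was left out of the fit (edgeR adjusted p = 0.0622 and 0.0553), with the fold change at -2.51 in both. On log2(TPM + 1) the direction turned for Spp1 (0.40), Fbln1 (0.22) and Efemp2 (0.06), and with single libraries as the unit it turned for Spp1 (0.03). The median stays the same with Fbln2, at 0 reads in the rat host, set to its 3-read floor.

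Between mouse hosts and controls none of the 7 members was called and 1, Fbln1, had an unadjusted p under 0.05, where 0% of 15698 genes were called (691 at an unadjusted p under 0.05). DESeq2 called 1 member, Fbln1, where it called 0.891% of 18177 genes. Besides Fbln1, the log2 fold changes were -0.23 (SE 0.18) for Postn, -0.09 (SE 0.16) for Efemp2, -0.04 (SE 0.15) for Efemp1, -0.97 (SE 0.89) for Spp1 and 0.47 (SE 0.97) for Fbln5. With single libraries as the unit, Spp1 was at -1.66 (edgeR adjusted p = 0.00573) and was called, though libraries of 1 experiment are not independent. The interval of 1 SE around the values of Spp1 and Fbln5 is several times wider than for the other 4. The median over the members was -0.23 against 0.00 over all tested genes.

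Between the graft and mouse hosts none of the 7 members was called and 1, Postn, had an unadjusted p under 0.05, where 0.115% of 15698 genes were called. DESeq2 called 1 member, Postn, where it called 7.99% of 15481 genes. The log2 fold change of Postn was -1.50 (SE 0.26), and 5 of the 45 alternative fits called it. Spp1 stood at 1.45 (SE 1.08), and with single libraries as the unit at 2.21 (edgeR adjusted p = 0.000115), a call with the same limit. The others were Fbln1 at -0.46 (SE 0.23), Efemp1 at 0.18 (SE 0.20), Efemp2 at -0.11 (SE 0.20) and Fbln5 at -1.93 (SE 1.41). The median over the members was -0.46 and that over all genes -0.09. The 3 arm contrasts share the mouse-host libraries, so their values stand side by side without a test between them. Fbln2 had no usable fold change in any of them, with an SE of 2.75 to 8.62.

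**Figure D2:**
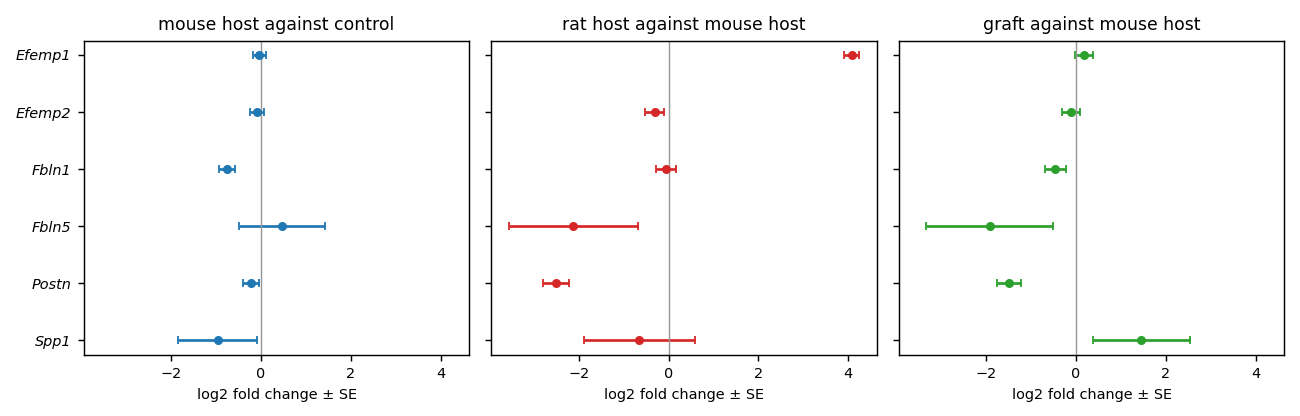
Log2 fold change with its SE from the fit of 8 experiment sums, for the 6 members other than Fbln2 in 3 contrasts. Efemp1 at 4.08 and Postn at -2.51 in rat host against mouse host lie farthest from 0 relative to their SE.

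Within the arms the tests used single libraries. Among the 4 mouse-host experiments 1 of the 6 tested members was called, Spp1, where 1.35% of 12195 genes were called. The levels of Spp1 in these experiments chose it as a member, so the count is a description. DESeq2 called the same member there, where it called 6.97% of 11396 genes. Between the 2 control experiments none of the 6 tested members was called, 1 (Spp1) had an unadjusted p under 0.05, and 0.0173% of 11544 genes were called. DESeq2 called none of the members there, where it called 1.1% of 15266 genes. Spp1 was at 4191 ± 1804 CPM in control experiment 2 and 2517 ± 374 CPM in control experiment 1, a log2 difference of 0.75 (SE 0.25).

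Whether the members follow Col3a1 was tested over the 32 libraries after the mean of each experiment had been taken off log2(CPM + 1), by permuting libraries within experiments 100000 times (two-sided) with Benjamini-Hochberg adjustment over the 7 members. Fbln2 passed the threshold, with r = 0.88 (permutation p = 0.00149, adjusted p = 0.0104) and Spearman's rho = 0.85 (permutation p = 0.00043, adjusted p = 0.00301). The members were chosen by their levels in these same libraries, so the p-values here are a description and not support. Without the 2 libraries farthest from the median of Col3a1 the value was r = 0.61 (permutation p = 0.0575, adjusted p = 0.403), so the relation rests on those libraries, and no other library had more than 3 reads of Fbln2. Fbln2 passed the threshold in all 40 fits that left out 1 library or 1 experiment, with r between 0.77 and 0.96. The 2 libraries belong to different experiments, so each of these fits kept at least 1 of them and cannot test this dependence.

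The other 6 members did not pass. Fbln1 came nearest, with r = 0.44 (permutation p = 0.0930, adjusted p = 0.326) and rho = 0.31 (permutation p = 0.134, adjusted p = 0.467), and r = 0.27 without the 2 libraries. Efemp2 had r = -0.21, Spp1 r = -0.13, Fbln5 r = 0.13, Efemp1 r = 0.07 and Postn r = -0.06, with permutation adjusted p between 0.525 and 0.715 and rho between -0.05 and 0.13 (adjusted p = 0.969 for each). Values that miss the threshold do not show that a gene is independent of stroma. The members' levels in the 12 libraries with no Col3a1 read were as follows. Spp1 ran from 50.5 to 4808 CPM with a median of 2291, Postn from 215 to 612 CPM with a median of 430, Fbln1 from 147 to 517 CPM with a median of 308, Efemp2 from 121 to 234 CPM and Efemp1 from 50.3 to 189 CPM. Fbln5 ran from 0.0342 to 52.4 CPM and was above 3 reads in 11 of the 12, and Fbln2 had no read. All 4 libraries of control experiment 1 are among the 12. In the same 12 libraries the 10 fibroblast markers summed to 0.108 to 40.7 CPM. The 5 dense connective tissue markers summed to 51.5 to 5111 CPM with a median of 1293, mostly from Tnmd in the higher sums. The part of these markers in the members' levels was not tested.

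**Figure D3:**
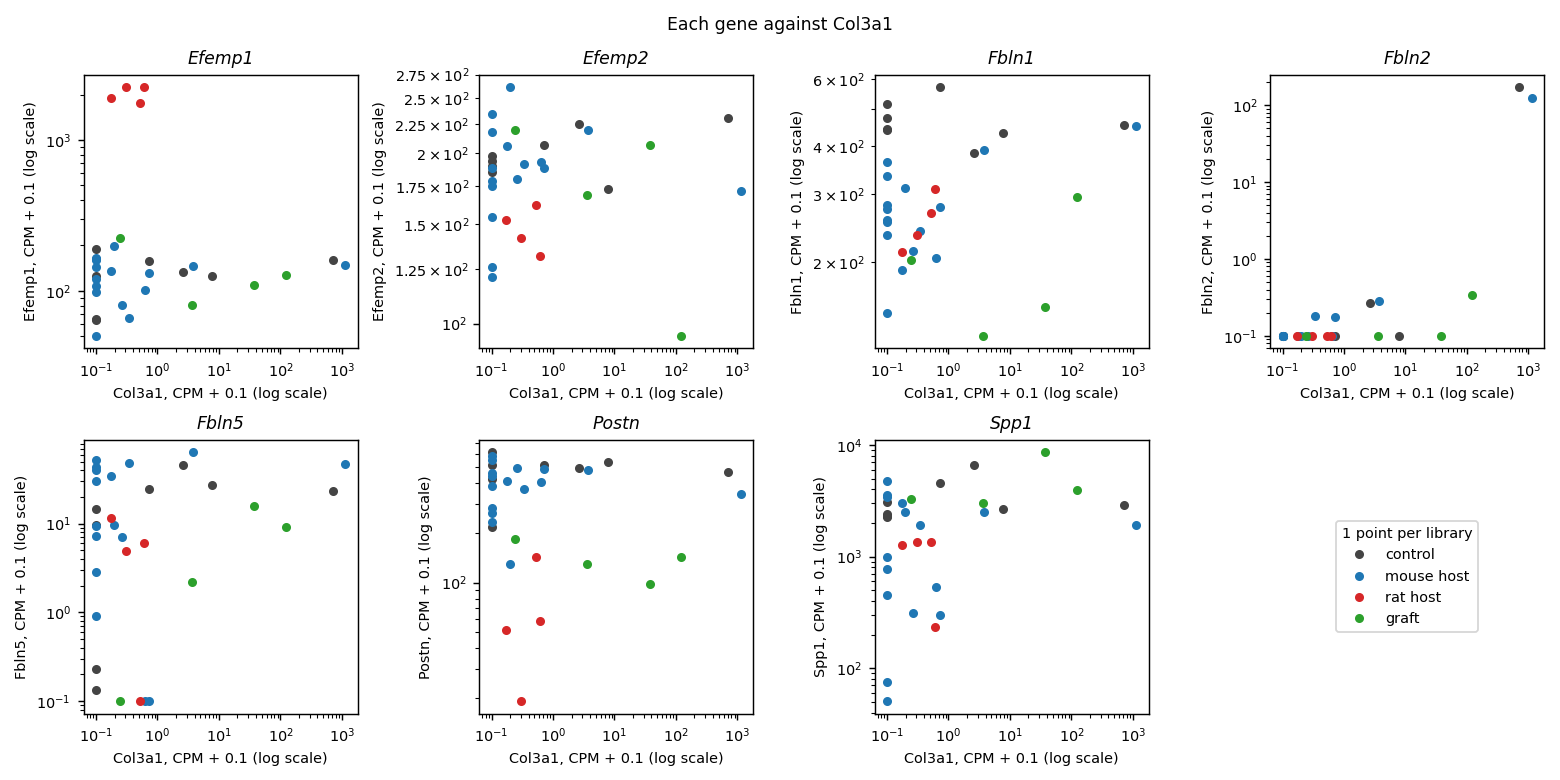
Each member against Col3a1, both as CPM + 0.1 on log axes, 1 point per library, coloured by arm. Fbln2 leaves the floor in the 2 libraries at 715 and 1140 CPM of Col3a1, and the other 6 members have reads in all 12 libraries with no Col3a1 read, down to 1 read for Fbln5.

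The transcript shares were not used to choose the members. For Fbln1, the shorter form (685 codons, known as fibulin-1C) took most of the reads of the pair in every library and the longer form (705 codons, known as fibulin-1D) the rest. The share of the longer form was 8.40, 8.53, 5.55 and 11.3% in control experiment 1. It was 19.0, 16.7, 28.7 and 19.8% in the rat host and 20.8, 38.1, 12.2 and 11.2% in the graft. All rat-host libraries were above the control libraries, whose highest was 16.4%, and within the range of mouse-host libraries, 4.92 to 29.4%. The counts behind these shares were 1396 to 14782 reads of the pair per library.

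For Postn, transcripts with the 81-base exon took 73.9 ± 2.7% of reads in control experiment 1 and 66.7 ± 3.6% in control experiment 2 (SD, n = 4). The mouse-host experiments gave 51.2 ± 7.3, 53.5 ± 10.8, 57.3 ± 6.7 and 65.7 ± 7.0%. The control range, 61.5 to 76.7%, overlapped that of mouse-host libraries, 41.6 to 75.7%, and every mouse-host mean was below both control means. In the graft the shares were 11.7, 50.1, 64.3 and 75.6%, a spread larger than in any other experiment. The lowest was in replicate 1, the graft library with the most Col3a1. The 2 libraries with more Col3a1 than that had 70.0% (control experiment 2 replicate 3) and 52.7% (mouse-host experiment 2 replicate 4). The rat host gave 87.3, 52.8, 68.9 and 64.8% from 277 to 2012 Postn reads. The 84-base exon was in 16.6 to 25.1% of reads on average in every experiment, with a rat-host range of 0 to 37.4%. Control experiment 1 was the tightest, at 20.4 to 22.2% from 6496 to 17193 reads.

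For Efemp2, the share of the longer of 2 coding forms (462 against 443 codons) was 7.35, 4.84, 6.48 and 5.01% in the rat host. The 24 control and mouse-host libraries ran from 14.4 to 45.4% with a median of 23.5%, so none overlapped with the rat host. In the graft the shares were 5.28, 22.3, 21.5 and 52.5%, so 1 graft library, replicate 1, lay in the rat-host range. The summed level of the gene in the same rat-host libraries, 132 to 162 CPM, lay inside that of the control and mouse-host libraries. These shares are Salmon's estimates from short reads that the transcripts largely have in common. With 1 rat-host experiment they are given without a test. Separations of shares, here and for Fbln1 and Postn, were not counted over all genes, so nothing is read from them.

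**Figure D4:**
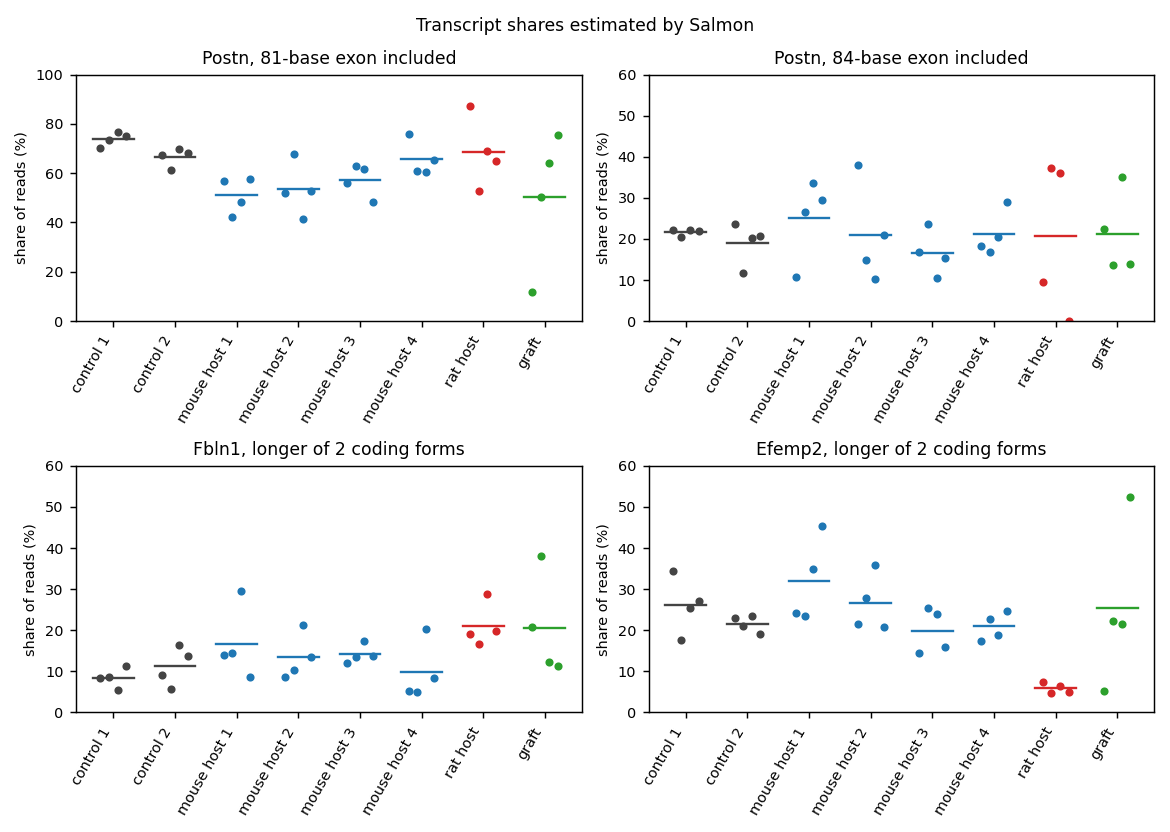
Share of reads in percent for 4 transcript choices in 8 experiments, 1 point per library and a bar at the mean of 4. The rat host stands below all control and mouse-host libraries for the longer form of Efemp2, at 4.84 to 7.35%, and the graft is spread from 11.7 to 75.6% for the 81-base exon of Postn. Such separations were not counted over all genes.

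Calls among genes that share a pathway with the members are given as a description, beside these shares of all genes. For mouse host against control, rat host and graft in turn, edgeR called 0, 0.643 and 0.115% of 15698 genes. An unadjusted p under 0.05 went to 691, 1816 and 1940 of them, and DESeq2 called 0.891, 6.77 and 7.99% of its tested genes. The counts in the lists are small and are not read as results about them. The other fibulin genes are Fbln7, Hmcn1 and Hmcn2. Of these 3, 1 was called lower in the rat host than in mouse hosts, Fbln7 at 4.21 ± 3.95 CPM (SD, n = 4) against 41.8 CPM, a log2 fold change of -3.27 (SE 0.50, edgeR adjusted p = 0.0411). Of 23 tested genes of elastic fibres and microfibrils none was called in any arm contrast with edgeR, and 1 to 3 had an unadjusted p under 0.05. DESeq2, with the shares of all genes called given above, called 2 of the list in the rat host (Lox and Mfap3), 4 in the graft (Eln, Loxl1, Loxl3 and Ltbp4) and 0 between mouse hosts and controls. Ltbp3, a latent TGF-beta binding protein gene, stood at 20.4 TPM in mouse hosts and 26.7 TPM in the rat host, and Mfap3 at 9.98 and 23.9 TPM. The median log2 fold change of the list, with genes at 0 reads in an arm set to their 3-read floor, was -0.24 in the rat host and -0.53 in the graft against mouse hosts, where the fitted values gave -0.31 and -0.94.

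The matricellular genes besides the members gave 0 calls among 24 tested in the arm contrasts with edgeR, and 0 to 5 at an unadjusted p under 0.05, where DESeq2 called 1 between mouse hosts and controls, 2 in the rat host and 5 in the graft. The fitted median was -1.96 in the rat host and -2.22 in the graft against mouse hosts, and -0.53 and -0.84 with genes at 0 reads set to the floor. Sparcl1, which encodes a SPARC-like matricellular protein, was the most abundant of them at 1979 TPM in controls, of the same order as Spp1. Among the mouse-host experiments it was the 1 gene called of 7 tested in the list, where 1.35% of 12195 genes were called. It stood at 3121 ± 237, 4964 ± 794, 3125 ± 547 and 4523 ± 746 CPM in experiments 1 to 4 (edgeR adjusted p = 0.0187). Its 2 lower experiments, 1 and 3, are not the pair in which Spp1 was low, 3 and 4. Sparc stood at 92.0 TPM in mouse hosts and 277 TPM in the rat host, with a log2 fold change of 1.21 that was not called (edgeR adjusted p = 0.463). Of the bone-matrix genes related to osteopontin, Dmp1 and Mepe had no read, Dspp had reads in 1 library and Ibsp in 2, with means of at most 0.778 CPM in any arm.

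None of 9 tested receptor genes was called in the arm contrasts with edgeR, and 1 or 2 had an unadjusted p under 0.05. DESeq2 called 2 of them in the graft, Itga5 and Itgb5, and 0 in the other 2 contrasts. Itgb1, the common beta subunit of many matrix integrins, stood at 60.5 TPM in controls and 61.7 TPM in mouse hosts, and Itgb5 at 9.91 and 15.2 TPM. The list's median log2 fold change was 0.39 in the rat host and -1.27 in the graft against mouse hosts (0.49 and -0.61 without genes at or under the floor in both arms). Of 9 tested proteases and their inhibitors none was called in the arm contrasts with edgeR, and 0 to 3 had an unadjusted p under 0.05. DESeq2 called 1 of them, Mmp14, in the rat host and 0 in the other 2 contrasts. Mmp14, a membrane metalloproteinase, stood at 35.5 TPM in mouse hosts and 122 TPM in the rat host (log2 fold change 1.51, edgeR adjusted p = 0.0705), and the list's median was 0.97 in that contrast and -0.08 in the graft. Timp2, a metalloproteinase inhibitor gene, was the 1 gene called of 8 tested in the list among the mouse-host experiments, where 1.35% of 12195 genes were called. Its levels were 166 ± 36.1, 145 ± 14.5, 46.8 ± 16.4 and 56.5 ± 18.4 CPM in experiments 1 to 4 (edgeR adjusted p = 0.00328). Those levels split the experiments in the way that those of Spp1 do. The 13 collagen genes gave no call in the arm contrasts with edgeR and none at an unadjusted p under 0.05, where DESeq2 called 1 in each (Col5a2 in the rat host and Col5a3 in the others). Col1a2 had reads in 12 libraries and Col3a1 in 20.

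The genes most like each member were found by Pearson's r of log2(CPM + 1), among tested genes with a mean of at least 8 CPM. These values describe the libraries and carry no p, since they are the highest among all genes ranked. Within experiments (32 libraries), Fbln2 was most like Smoc2 (r = 1.00 to 2 decimals, 0.998), C3 (0.94) and Igfbp6 (0.92), all carried by the same 2 libraries. For the other members the highest values were lower: Letmd1 for Efemp1 (0.79), Eci2 for Fbln5 (0.77), Ralgps2 for Efemp2 (0.76), Acot1 for Postn (0.74), Coro1b for Fbln1 (0.66) and Stk36 for Spp1 (0.60). Over the 8 experiment means, Efemp1 was most like Cdh3 (0.98), Gapdh (0.96) and H2afx (0.96), values that the single rat-host point can carry. The first for the others were H2-T-ps for Postn (0.98), Rnf11 for Spp1 (0.97), Selenoo for Fbln5 (0.97), Abcc1 for Efemp2 (0.96) and Hmga1 for Fbln1 (0.95). Among themselves, within experiments, the 7 members gave r from -0.46 (Efemp1 with Postn) to 0.34 (Fbln1 with Fbln2), so no pair moved closely together from library to library.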

How the data were processed

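The authors quantified transcripts with Salmon, with GRCm39 named as the genome build, per the submitters' processing notes. Neither Salmon's version nor its annotation is stated there. The authors' deposited tables hold, per transcript and library, an expected count (Salmon's estimated count of reads) and a TPM, both computed by the authors. Of 116747 mouse transcripts, 115685 matched GENCODE M21 by identifier, and the other 1062 held 0.493% of reads and were left out. Sums over a gene's transcripts were rounded to whole reads. Depth is given with the samples above, and the 3-read floors cover counting error only, since the SMART-Seq HT kit adds no molecular identifiers. Arms were fitted on the 8 experiment sums with edgeR 4.0.16 (quasi-likelihood, TMM, filterByExpr, 4 residual degrees of freedom, R 4.3.3), assuming that the rat host and the graft, with 1 experiment each, vary like the other arms. Alternatives used DESeq2 1.42.0, limma 3.58.1 on log2(TPM + 1) of experiment means, and left-out libraries and experiments. Correlations used numpy 2.4.6 and scipy 1.17.1. The arm fit was tested on simulated counts and the correlations on simulated normal values. Those values lack the many 0 counts and the 2 extreme libraries of Col3a1 and Fbln2, so that test does not cover such data. Over 48 replicate pairs, the lowest chi-square per degree of freedom was 41.0, so every library was kept. The members and lists were chosen with earlier results of these data known. Named genes are the members, Col3a1, the genes most like each member, and for each list up to 4 called genes per contrast or, with none, the 2 of highest mean CPM. List genes named for DESeq2 calls were chosen after their values were seen. The replicate numbers do not pair the samples.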

Additional observations from a re-analysis of the deposited data

Results flagged for a closer look

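Among 82 sets of 4 libraries (a member's log2(CPM + 1), or a transcript share, in 1 experiment), 5 had a library far from the other 3 by Dixon's criterion at its 95% level, where chance gives about 1 in 20. Fbln2 was highest in control experiment 2 replicate 3, at 172 CPM, with the other 3 libraries at 0 to 0.168 CPM. It was highest in mouse-host experiment 2 replicate 4, at 124 CPM, with the others at 0 to 0.0805 CPM. Spp1 was lowest in rat-host replicate 1, at 234 CPM against 1283 to 1346 CPM. Efemp1 was lowest in mouse-host experiment 2 replicate 1, at 66.4 CPM against 136 to 148 CPM. The 84-base exon share of Postn was lowest in control experiment 1 replicate 2, at 20.4% against 22.0 to 22.2%.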

How the results depend on the processing

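The levels chose the members, so their values over the alternatives are a description: the log2 fold change in rat host against mouse host ran from 3.98 to 4.41 for Efemp1 and from -3.22 to -2.16 for Postn. The number of genes called moved with the processing. With DESeq2 it was 162 for mouse host against control, 1048 for rat host and 1237 for graft against mouse host, 794 among mouse-host experiments and 168 between the control experiments. Without a filter on low counts it was 173 for rat host and 53 for graft. With single libraries treated as independent it was 57, 1145 and 752 in the 3 arm contrasts, and on log2(TPM + 1) it was 7, 592 and 259. Leaving out 1 library or experiment gave 12 to 127 for rat host, 0 to 77 for graft, 78 to 202 among mouse-host experiments and 0 to 4 between the control experiments. Without the 2 libraries rich in fibroblast markers, chosen after seeing the data, it was 1 between the control experiments. The cause of these moves was not tested. With the replicate number as a block it was 49, 1116 and 556 in the arm contrasts, 111 among mouse-host experiments and 0 between the control experiments. Same-numbered libraries of different experiments correlated at -0.12 to 0.079, so the numbers are not taken as pairs. The members past the threshold for Col3a1 numbered 1 and, without the 2 libraries farthest in Col3a1, 0. With the block the number was 1. Of 32 mean transcript shares, 5 moved by more than their SD when computed from TPM. The arm fit has 4 residual degrees of freedom, so a missed call says little about a member with a large SE.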
